A study of Saccharomyces cerevisiae with 4 samples.

Results

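Single-gene promoters of budding yeast, the upstream regions that the array annotation gives to 1 gene and not to a pair of genes transcribed away from each other, were examined for occupancy by RNA polymerase II. They were chosen by annotation alone: array probes typed as promoter, outside the mitochondrial genome, and not excluded on any of the 4 arrays. This gave 5859 probes (of 5869 before exclusion and 41775 data probes in all) at 2591 promoters, among 10743 annotated regions. The name given with each promoter was found in the RefSeq R64 table for 2582 of them, and every probe of the 2591 lay upstream of its gene, at 1 to 1999 bp from the start with a median of 307 bp. Of these promoters 1105 carried a single probe and the longest carried 10.

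Chromatin immunoprecipitation followed by hybridisation to tiling arrays (ChIP-chip) had been run on 2 groups of 2 arrays each, all in Saccharomyces cerevisiae labelled as the S288c background. In the Rpb3 group the strain carried a TAP tag on Rpb3, in the Rpb4 group a TAP tag on Rpb4, and all cultures had been grown to log phase at 25 °C in YPD, a rich glucose medium, to an OD600 near 0.8, and fixed with 1% formaldehyde for 20 min. The immunoprecipitated DNA (IP, Cy5) and the whole-cell extract of the same strain (the input, Cy3) were hybridised together to probes of 60 nucleotides about 290 bp apart. The labels name no untagged or mock precipitation and leave unstated whether paired arrays stem from separate cultures, and every p-value therefore reflects the spread of these 4 arrays alone, which may be technical. Sheared fragments averaged 400 to 500 bp, so a promoter probe can also report DNA of the gene on either side.

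RNA polymerase II is assembled at promoters with the general transcription factors, initiates, and then passes through the gene body to the termination region. Rpb3 belongs to the core of the enzyme, whereas Rpb4 forms with Rpb7 a stalk that can dissociate from the core. In the compact yeast genome the promoter of a gene in tandem with its upstream neighbour is also the region beyond the 3′ end of that neighbour, where elongating polymerase terminates. A shared promoter, by contrast, has a 5′ end on each side.

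Levels are given as log2 of IP over input with the median probe of each array set to 0: 0 is the median probe, not an absence of polymerase. The median signal over local background was 72.9 to 125.9 in the IP channel and 150.9 to 168.1 in the input channel, and the small number of arrays limits the precision. The 2 Rpb4 arrays resembled each other more closely than the 2 Rpb3 arrays: over the promoters the median absolute difference between arrays of a group was 0.049 for Rpb4 and 0.198 for Rpb3. Correlations across the 2591 promoters, which share arrays and are no replicates, were 0.99 between the Rpb4 arrays, 0.907 between the Rpb3 arrays and 0.85 to 0.90 between groups. The fit used 1 spread per promoter for all 4 arrays, so its standard errors (SE) are the same for Rpb3 and Rpb4.

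On average the log2 ratio stood above the median probe at single-gene promoters, and it stood higher there with Rpb3 than with Rpb4. The mean over the 2591 promoters was 0.453 and 0.468 on the Rpb3 arrays (0.46 ± 0.011, SD, n = 2) and 0.281 and 0.258 on the Rpb4 arrays (0.27 ± 0.016, SD, n = 2). Both Rpb4 arrays lay below both Rpb3 arrays, with a difference of -0.191 on the log2 scale. At the 1362 shared promoters the array means were 0.035 and 0.002 with Rpb3 and -0.199 and -0.206 with Rpb4. The step from shared to single-gene promoters was 0.418 and 0.466 with Rpb3 and 0.480 and 0.464 with Rpb4, so it did not separate the groups (difference 0.03, two-sided exact permutation p = 0.667). Regions downstream of genes were higher than single-gene promoters, at 0.628 and 0.658 with Rpb3 and 0.585 and 0.541 with Rpb4 over 1293 regions. Inside genes the arrays lay close together, at 0.183 and 0.173 with Rpb3 and 0.143 and 0.172 with Rpb4 over 5489 genes, where the higher Rpb4 array nearly met the lower Rpb3 array. The promoter mean minus the mean inside genes was 0.270 and 0.295 with Rpb3 and 0.138 and 0.086 with Rpb4, a difference of -0.17 for which the two-sided exact permutation test gave p = 0.333, the smallest p that 2 arrays against 2 allow.

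**Figure D1:**
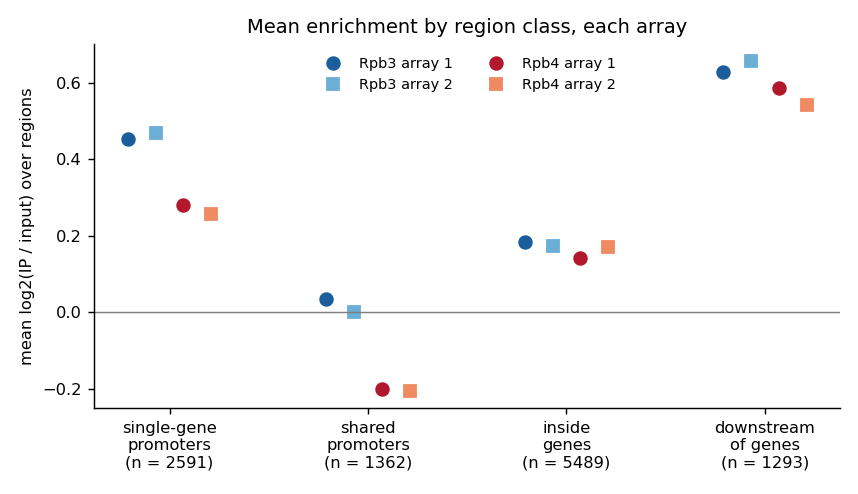
Mean log2(IP / input) over regions (vertical axis) for the 4 region classes (horizontal axis), 1 point for each array and no error bars. At single-gene promoters the Rpb3 arrays (0.453, 0.468) lie above the Rpb4 arrays (0.281, 0.258), at shared promoters all 4 arrays are lower by about the same step, and inside genes the arrays lie close together.

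The ratio has input DNA in its denominator, and the input itself was low at these promoters. Over the promoter probes the input signal, relative to the median probe, averaged -0.530 and -0.576 on the Rpb3 arrays and -0.476 and -0.462 on the Rpb4 arrays. The IP signal averaged -0.249 and -0.251 with Rpb3 and -0.343 and -0.354 with Rpb4. The mean IP signal was thus below the median probe on every array at promoters, and the input was lower still, which places the ratio above 0. Shared promoters had a similar IP signal (group means -0.226 with Rpb3 and -0.376 with Rpb4) and a higher input (-0.227 and -0.148). The step in the ratio between the 2 promoter classes thus lay mainly in the input. Regions downstream of genes had a lower IP signal (-0.568 and -0.578) and a still lower input (-0.964 and -0.885). Between the groups, at single-gene promoters, the input was higher by 0.084 with Rpb4 and the IP lower by 0.099. The ratio differed by -0.168 over probes, so the 2 channels moved in opposite directions.

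Region by region, 1443 of the 2591 promoters (55.7%) were above the median probe with Rpb3, where 43.5% of all 10743 regions were, and 393 (15.2%) were below it, where 23.5% of all regions were (limma, Benjamini-Hochberg adjusted p under 0.05). With Rpb4, 1177 promoters (45.4%) were above, against 38.6% of all regions, and 493 (19.0%) were below, against 25.2%. Shared promoters had the opposite balance, with 368 of 1362 above and 479 below for Rpb3, and 186 above and 745 below for Rpb4. The median promoter stood at 0.35 with Rpb3 (quartiles -0.06 and 0.83) and at 0.20 with Rpb4 (quartiles -0.15 and 0.59). The count above with Rpb4 fell to 593 and 640 without array 1 or array 2 of that group, and the count below to 131 and 139. Without either Rpb3 array 744 were below with Rpb4, and the Rpb3 count below rose to 629 without Rpb3 array 1.

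The highest mean with Rpb3 was at the promoter of TRX1, a cytosolic thioredoxin gene, with probes on chromosome 12 from 232016 to 232329 as the files give positions (genome build not given in the sources used here). Its Rpb3 arrays read 3.69 and 4.63 and its Rpb4 arrays 3.10 and 3.12, for means of 4.16 and 3.11 (SE 0.234, adjusted p = 0.000435 and 0.00109, limma). All 4 arrays were far above the median probe and the groups did not overlap, but their difference of -1.05 did not pass (adjusted p = 0.161). The gene upstream in tandem is PDC1, the main pyruvate decarboxylase of fermentation, whose body stood at 3.68 with Rpb3 and 3.24 with Rpb4, while the body of TRX1 stood at 2.42 and 1.85.

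This arrangement, a promoter above the gene it serves and behind a neighbour with high occupancy, recurred among the highest promoters. The promoter of CTR2, a vacuolar copper transporter gene, read 3.31 and 3.99 with Rpb3 and 3.38 and 3.46 with Rpb4, behind the enolase gene ENO2 at 3.68 and 3.56. It was the highest of all promoters with Rpb4, and the groups overlapped there. The promoter of TAL1, the transaldolase gene, read 3.49 and 4.21 with Rpb3 and 2.63 and 2.72 with Rpb4, behind ILV5 of branched-chain amino acid synthesis at 4.25 and 3.29, while the body of TAL1 was at 1.23 and 1.16. The promoter of SLP1 was at 3.56 with Rpb3 and 2.78 with Rpb4 behind the drug efflux pump gene PDR5 at 4.27 and 3.94, and the body of SLP1 was at 0.05 and 0.24. MCM3, which encodes a subunit of the replicative helicase, had promoter values of 3.70, 4.28, 2.34 and 2.38 and a body of 0.07 and 0.24. Its upstream coding neighbour HYP2, the gene of translation factor eIF5A, stood at 3.48 and 2.0, and MCM3 alone of these promoters passed the test between groups (difference -1.63, adjusted p = 0.0439, limma). At MCM3 the input was higher by 0.632 with Rpb4 (adjusted p = 0.00687, limma). The IP difference of -1.015 did not pass (adjusted p = 0.0947, limma), and 1 of the 3 probes had an input differing by more than 1. A tRNA gene is the next gene upstream of MCM3 in RefSeq.

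A few of the highest promoters were those of highly occupied genes themselves. The promoter probe of TPI1, triose phosphate isomerase, read 3.22 and 3.71 with Rpb3 and 2.95 and 2.91 with Rpb4, and its body stood at 2.67 and 2.51, with the neighbour DET1 near the median probe (-0.03 and 0.20). CDC19, pyruvate kinase, read 3.13, 3.74, 2.69 and 2.65 at a single probe 140 bp from its start, with a body of 3.39 and 3.32. RPL9B, a large-subunit ribosomal protein gene, read 3.24, 3.8, 2.73 and 2.87 at a probe 35 bp from its start.

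The lowest promoters included those of genes used in meiosis, sporulation and phosphate starvation, and some that lie behind a gene with low occupancy. HOP2, a meiotic recombination gene, read -0.85 and -1.45 with Rpb3 and -0.89 and -0.94 with Rpb4 (Rpb3 mean -1.15, SE 0.155, adjusted p = 0.00407, limma). The promoter of COY1, a Golgi protein gene, lies behind the pheromone receptor gene STE3 and read -0.87, -1.22, -0.96 and -0.96, whereas the body of COY1 stood at 0.23 and 0.25 and that of STE3 at -0.89 and -0.95. The promoter of ENP2, a ribosome biogenesis gene, lies behind the thiamine synthesis gene THI4 and read -0.80, -1.28, -0.92 and -1.16. PHO89, a phosphate transporter gene, had -0.79, -1.22, -0.97 and -0.99 over 5 probes, and PFS1, a sporulation gene, -0.85, -1.12, -1.07 and -1.03. The 2 groups overlapped at all 5 of these promoters.

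Occupancy was highest next to the gene start and fell with distance on every array. Probes within 99 bp of the start (n = 1131) averaged 0.518 and 0.513 on the Rpb3 arrays and 0.291 and 0.294 on the Rpb4 arrays. Probes in the sixth bin of 100 bp, from 500 bp on (n = 350), averaged 0.221 and 0.251, and 0.129 and 0.104. From 1300 bp outward the mean of each group was below 0. The gap between groups was widest near the start: Rpb4 minus Rpb3 was -0.224, -0.219 and -0.20 in the 3 bins nearest the start, between -0.172 and -0.101 in each bin from 300 to 1499 bp, and between -0.104 and -0.03 beyond 1400 bp. The input was lower at 100 to 299 bp (-0.686 and -0.668 with Rpb3, -0.597 and -0.585 with Rpb4) than within 99 bp (-0.398 and -0.316), and it did not follow the fall of the ratio, with -0.687 and -0.564 at 800 to 899 bp. Far probes exist only at long promoters, and those were low: the median was 0.46 with Rpb3 at the 1105 promoters of 1 probe, 0.37 at the 760 of 2 probes, 0.09 at the 162 of 4 probes and -0.22 at the 273 of 5 or more, and with Rpb4 it was 0.27, 0.27, 0.02 and -0.30.

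**Figure D2:**
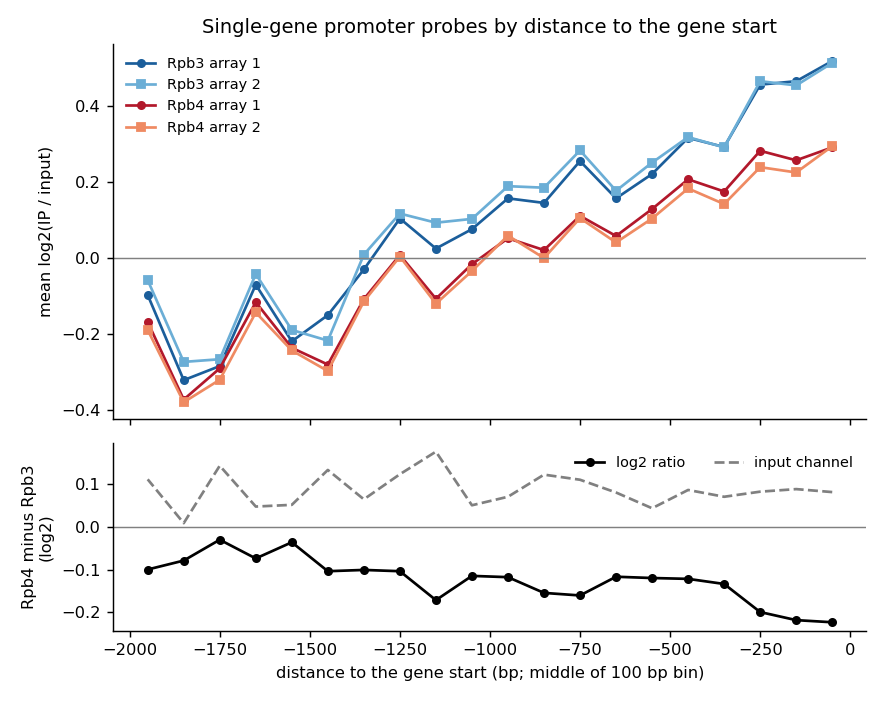
Upper panel: mean log2(IP / input) of single-gene promoter probes in bins of 100 bp (vertical axis) against distance to the gene start (horizontal axis, bp), 1 line for each array. Lower panel: Rpb4 minus Rpb3 for the ratio (solid) and for the input channel (dashed). The ratio falls on all 4 arrays from the first bin (0.518, 0.513, 0.291, 0.294) to below 0, and the gap between the groups is -0.224 in the first bin and -0.10 in the last.

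The level at a promoter followed the gene upstream at least as closely as the gene it serves. Of the 2591 promoters, 2388 had their nearest probed gene on the far side in tandem, and 2313 of these had values inside both genes. Across these 2313, the Rpb3 promoter level had a Pearson correlation of 0.678 with the body of the neighbour and 0.509 with the body of the promoter's own gene, and the 2 bodies correlated at 0.233. With Rpb4 the values were 0.677, 0.498 and 0.202. These correlations describe promoters measured on the same arrays, where adjacent probes can report the same DNA fragments, and carry no test.

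The 2313 tandem promoters were also sorted by the mean level over the 4 arrays inside each gene, as high (over 1), low (under 0) or between, a division chosen after the values had been seen. Where both genes were low (529 promoters) the promoter medians on the 4 arrays were -0.05, -0.11, -0.14 and -0.18. Where the gene was high and the neighbour low (80 promoters) they were 0.87 and 0.94 with Rpb3 and 0.55 and 0.52 with Rpb4. Where the gene was low and the neighbour high (51 promoters) they were 1.22, 1.29, 0.92 and 0.95, above the former on every array. With both high (36 promoters) they reached 1.68, 1.95, 1.43 and 1.38. Promoters of low genes behind high neighbours passed the test above 0 in 44 of 51 cases with Rpb3 and 43 with Rpb4, and those of high genes behind low neighbours in 74 and 59 of 80, where 55.7% and 45.4% of all single-gene promoters did.

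**Figure D3:**
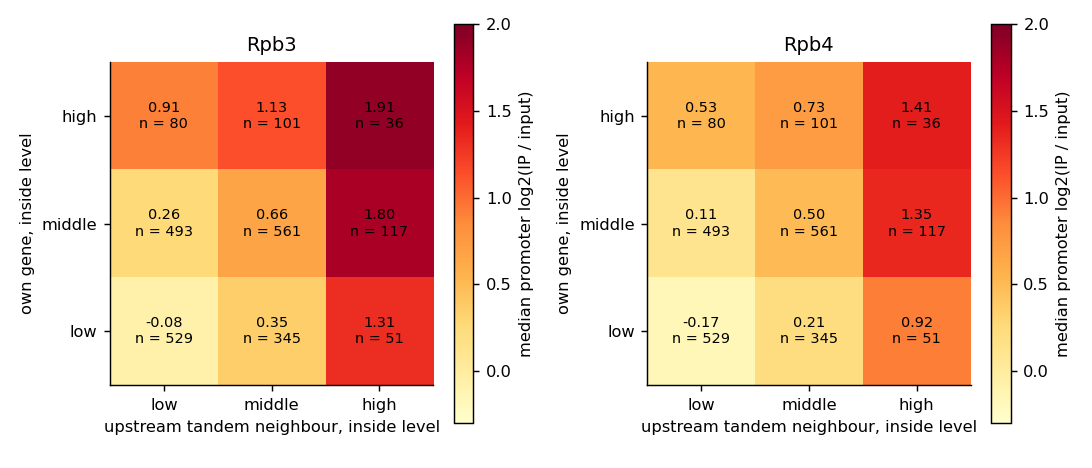
Median promoter log2(IP / input) (colour and number) for tandem promoters sorted by the level inside the gene itself (vertical axis) and inside its upstream neighbour (horizontal axis), for Rpb3 (left) and Rpb4 (right), with the number of promoters in each cell. The median rises along both axes, from -0.08 to 1.91 with Rpb3 and from -0.17 to 1.41 with Rpb4.

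Along the gene start the sorted promoters had different shapes. At high genes behind low neighbours, Rpb3 rose from 0.43 at 600 to 401 bp upstream to 1.61 in the last 200 bp before the start, and was 1.64 in the first 200 bp of the gene and 1.66 at 600 to 799 bp into it. Rpb4 rose from 0.26 to 1.03 in the last 200 bp, and was 1.24 in the first 200 bp and 1.42 at 600 to 799 bp. In the last 200 bp upstream Rpb3 was thus close to its level inside the gene while Rpb4 was lower than inside, and both Rpb4 arrays (1.04 and 1.02) lay below both Rpb3 arrays (1.53 and 1.69) there. Further in, at 1000 to 1199 bp, the arrays read 1.62 and 1.94 with Rpb3 and 1.58 and 1.63 with Rpb4, which overlap. At low genes behind high neighbours the levels fell the other way, from 1.03 to 0.66 to -0.15 with Rpb3 and from 0.85 to 0.44 to -0.10 with Rpb4, at 600 to 401 bp upstream, in the last 200 bp and in the first 200 bp of the gene. Where both genes were low the last 200 bp still stood above either side, at -0.06 against -0.19 and -0.31 with Rpb3, and at -0.17 against -0.27 and -0.33 with Rpb4. The classes were defined by levels inside the genes, so those levels are no finding, and none of this was tested.

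**Figure D4:**
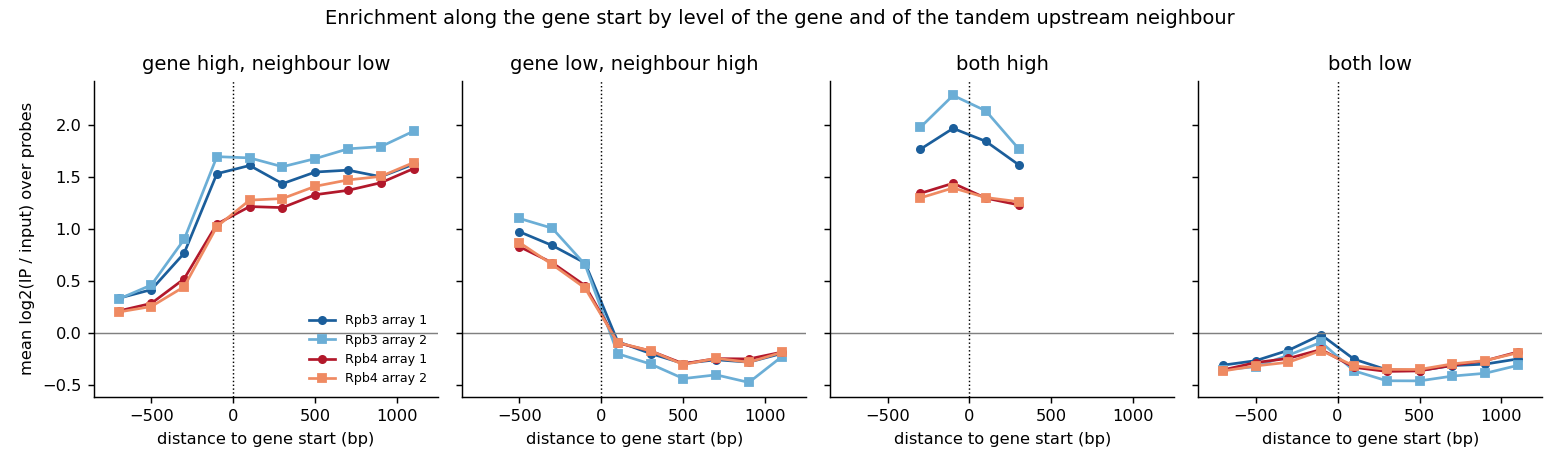
Mean log2(IP / input) over probes in bins of 200 bp (vertical axis) against distance to the gene start (horizontal axis, bp, upstream negative, bins of at least 20 probes) for 4 classes of tandem promoters, 1 line for each array. In the class with a high gene and a low neighbour the Rpb3 lines reach 1.53 and 1.69 before the start and the Rpb4 lines 1.04 and 1.02.

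Genes for small nucleolar RNAs, short RNAs that guide modification of ribosomal RNA and are made by polymerase II, stood upstream of some of the highest promoters. In the gene order of RefSeq, 27 promoters had a snoRNA gene as the next gene upstream, after genes nested inside coding genes had been passed over. Their median was 1.73 and 1.83 on the Rpb3 arrays and 1.53 and 1.49 on the Rpb4 arrays, and 26 of the 27 passed the test above 0 in each group, as did 1364 and 1124 of the 2360 promoters behind a coding gene. The genes they serve had median bodies of 0.33 and 0.22, and the promoter exceeded the body in 22 of 26 cases with Rpb3 and 23 with Rpb4, where for promoters behind a coding gene this held in 1000 of 2280 and 659 of 2280. The annotation of the array probes names no snoRNA gene, so a probe typed as promoter can lie on or beside the snoRNA gene.

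BUD22, a ribosome biogenesis gene behind SNR72, read 3.28 and 4.10 with Rpb3 and 2.94 and 2.96 with Rpb4, with a body of 0.45 and 0.25. TRS31, a vesicle tethering gene behind SNR13, read 3.22, 4.10, 2.94 and 2.80, with a body of 0.31 and 0.31. AAR2, a splicing factor gene behind SNR56, read 3.00, 3.62, 2.64 and 2.56 and its body was at -0.18 and -0.10. All 3 stood far above their genes on each array. The nearest probed coding gene upstream was also high at TRS31 (RPL27B, 1.75 with Rpb3 and 1.48 with Rpb4) and at AAR2 (RPS8A, 1.52 and 1.49). At BUD22 it was SEC59, at -0.08 and -0.14. The share of each upstream gene in these levels was not tested.

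Transfer RNA genes are made by RNA polymerase III, and the 158 promoters with a tRNA gene as the next gene upstream did not share this. Their medians were -0.19 and -0.10 with Rpb3 and -0.31 and -0.32 with Rpb4. Of the 158, 38 were above and 68 below the median probe for Rpb3, and 15 above and 92 below for Rpb4. Over all single-gene promoters 55.7% were above and 15.2% below with Rpb3, and 45.4% and 19.0% with Rpb4. The 158 also carried more probes (median 5, against 2 behind coding genes and 4 behind snoRNA genes), and the long promoters were the low ones.

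Each promoter was also set against the body of its own gene, for the 2496 with probes inside it. The mean of promoter minus body was 0.233 and 0.257 on the Rpb3 arrays and 0.090 and 0.051 on the Rpb4 arrays, a group difference of -0.175 (two-sided exact permutation p = 0.333, the smallest possible). With Rpb3, 1064 promoters (42.6%) were above their gene body, against 29.0% of the 5131 genes fitted with any promoter, and 417 (16.7%) were below it, against 23.8% (limma). With Rpb4, 704 (28.2%) were above, against 16.9%, and 522 (20.9%) below, against 34.0%. The Rpb4 counts fell to 219 and 225 above and 166 and 135 below without array 1 or array 2 of that group, and rose to 1167 above and 910 below without either Rpb3 array. The count below the body with Rpb3 rose to 736 without Rpb3 array 1. In the 2631 genes with a shared promoter the order was reversed, with 425 above and 806 below for Rpb3, and 163 above and 1225 below for Rpb4. With only the probe inside the gene that lies nearest its start, the counts of single-gene promoters below the body were 246 with Rpb3 and 203 with Rpb4, and with only the nearest promoter probe the Rpb3 count was 267.

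Among the promoters furthest below their gene were several of highly occupied genes whose nearest promoter probe lay over 200 bp from the start. Others had a nearer probe, such as ECM15 at 84 bp (promoter minus body -2.92 with Rpb3, 1 probe inside the gene) and ENO2 at 155 bp (-2.09 with Rpb4). HXT3, a hexose transporter gene, had 8 promoter probes reaching from 239 bp outward that read -0.04, -0.10, -0.29 and -0.33, with a body of 2.52 with Rpb3 and 2.04 with Rpb4 (promoter minus body -2.59 and -2.35, SE 0.162, adjusted p = 0.00088 and 0.00133, limma). FBA1, fructose bisphosphate aldolase, read 1.00, 1.32, 1.04 and 1.01 at the promoter, with a body of 3.51 and 3.61. PDC1 read 0.94, 1.34, 0.72 and 0.61 at a promoter that starts 252 bp away, with a body of 3.68 and 3.24. SED1, a cell wall protein gene, read 0.27, 0.44, 0.34 and 0.22, with a body of 2.57 and 2.92. PSA1 of mannose metabolism had a promoter minus body value of -2.30 with Rpb3 over 8 probes, but with its nearest promoter probe alone the value was 0.04.

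The group difference in promoter minus body passed for no single gene: 0 of 2496 were higher and 0 lower, as in 0.0% of all 5131 genes in each direction (limma). At an unadjusted p under 0.05 there were 623 (25.0%), near the 26.9% of all genes. Of these 623, 546 were lower with Rpb4, where 74.2% of all 2496 had a negative difference. The count depended on scaling and on single arrays, with 12 higher and 27 lower after scaling the arrays to 1 spread, 24 and 96 after quantile normalization, 14 and 30 with normexp background correction, 478 and 1263 without Rpb3 array 1, 146 and 1103 without Rpb3 array 2, 1 and 1 without Rpb4 array 1, and 0 and 0 without Rpb4 array 2. The smallest adjusted p was 0.0551, for SAC3 and LYS9 among others. Promoter minus body at SAC3, an mRNA export gene, differed by -1.81 (SE 0.155) and at LYS9, saccharopine dehydrogenase of lysine synthesis, by 2.04 (SE 0.151), neither passing.

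Directly at the promoter, 115 of 2591 promoters (4.44%) were lower with Rpb4 than with Rpb3, where 2.83% of all regions were, and 8 (0.309%) were higher, where 0.484% were (limma). At the shared promoters 48 of 1362 (3.52%) were lower and 3 higher. The median difference was -0.15 and 73.8% of single-gene promoters had a negative one. Without Rpb4 array 2 no promoter passed in either direction, without Rpb4 array 1 there were 7 lower and 0 higher, without Rpb3 array 1 there were 1274 lower and 496 higher, and without Rpb3 array 2 1048 and 124. Among the 115, the median difference was -0.83, made up of an IP lower by 0.66 and an input higher by 0.22, and the channels moved in opposite directions at 104 of them. Over all promoters they did so at 1603 of 2591.

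Many of the promoters that were lower with Rpb4 adjoined a gene of amino acid synthesis. Of the 115, 17 were promoters of listed amino acid synthesis genes, 25 lay behind such a gene, and 41 had one on either side, where 93 of the 2591 did. Of 49 promoters of these genes 17 were lower, with a median difference of -0.54 against -0.15 over all single-gene promoters and -0.05 over all regions. Of the 45 promoters that lie behind one of these genes 25 were lower, with a median of -0.84. This list was written with the earlier results known and its counts are no independent evidence. After scaling the arrays to 1 spread 10 and 9 passed, without Rpb4 array 1 there were 1 and 3, and without Rpb4 array 2 0 and 0. Without Rpb3 array 1 there were 40 and 35, and without Rpb3 array 2 35 and 37.

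The largest decrease past the threshold was at the promoter of INH1, a mitochondrial ATPase inhibitor gene, with 2 probes on chromosome 4 from 134923 to 135196. It read 3.22 and 3.84 with Rpb3 and 0.79 and 0.63 with Rpb4, a difference of -2.82 (SE 0.229, adjusted p = 0.0242, limma). The groups were far apart. The input was higher by 1.31 with Rpb4 (adjusted p = 0.00573, limma), and 1 of the 2 probes had an input differing by more than 1. The IP was lower by 1.53, which did not pass (adjusted p = 0.0566, limma). The tandem neighbour of INH1 is LYS20, homocitrate synthase, the entry enzyme of lysine synthesis. The body of LYS20 went from 3.75 with Rpb3 to 0.77 with Rpb4. The body of INH1, with 1 probe inside the gene, went from 0.98 to -0.16.

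The promoters of STF1 and MSO1 repeated this layout. STF1, another ATPase regulator gene, read 2.33 and 2.81 with Rpb3 and 0.70 and 0.41 with Rpb4 behind LYS21, the second homocitrate synthase gene, whose body went from 2.32 to 0.34 (promoter difference -2.01, adjusted p = 0.032, limma). MSO1, a secretion gene, read 2.30, 3.00, 0.08 and 0.01 behind LYS9, which went from 2.76 to -0.15 (difference -2.60, adjusted p = 0.0306). In both cases the difference at the promoter was closer to that of the neighbour than to that of the gene itself. The latter was -0.81 at STF1, from 1 probe inside the gene, and -1.08 at MSO1.

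The promoters of LYS21, LYS9 and LYS1 differed less between groups than their bodies. The LYS21 promoter read 0.32 and 0.19 with Rpb3 and -0.12 and 0.10 with Rpb4, a difference of -0.26 that did not pass (adjusted p = 0.233, limma), while the body differed by -1.98. The LYS9 promoter read 2.10 and 2.27 with Rpb3 and 1.37 and 1.26 with Rpb4, a difference of -0.87 (adjusted p = 0.0346, limma), while the body went from 2.76 to -0.15. The contrast of promoter and body between groups, 2.04 over its 5 promoter probes, was 0.52 with the nearest probe alone. The next gene upstream of LYS9 in RefSeq is the snoRNA gene SNR49. LYS1, which encodes the final step and lies on chromosome 9, read 2.47, 2.76, 0.55 and 0.36 at the promoter, a difference of -2.16 (adjusted p = 0.0211, limma), while its body differed by -3.06. The body of its tandem neighbour NRE1 went from 1.99 with Rpb3 to 0.25 with Rpb4.

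Further large decreases were at DCP1, GRE2, YAH1, CDC20, SAC3 and ARG4. DCP1, an mRNA decapping gene, read 2.35 and 2.78 with Rpb3 and 0.20 and 0.22 with Rpb4 behind GRE2, a stress-induced reductase gene, and GRE2's own promoter read 1.59, 2.17, -0.13 and -0.27. YAH1, mitochondrial ferredoxin, read 2.04, 2.22, 0.07 and -0.06 behind ATG41, which went from 2.84 to 0.35. CDC20, the activator of the anaphase-promoting complex, read 1.82, 2.12, 0.08 and -0.03 with a body of 0.26 and -0.10, behind ARO5 at 0.91 and -0.25. SAC3 read 1.99, 2.31, 0.46 and 0.42 at a probe 39 bp from its start, behind HOM2 of threonine and methionine synthesis, which went from 1.69 to 0.26, while the body of SAC3 was at -0.18 and -0.09. ARG4, argininosuccinate lyase, read 2.07, 2.56, 0.47 and 0.33 with a body of 2.28 and 0.25 and DED81 upstream at 0.85 and 0.35.

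All 8 promoters that rose with Rpb4 had a tandem neighbour that also had the higher mean with Rpb4, and so did the genes they serve, where over all promoters 1524 of 2582 neighbours and 1366 of 2496 gene bodies went the same way as the promoter. The neighbour's body passed the test for a difference at 3 of the 8 (limma), and at 76 of all 2591 promoters. The neighbour of VEL1, YPS5, differed little, at -0.60 with Rpb3 and -0.53 with Rpb4. QDR1, a drug transporter gene, read -0.26 and -0.52 with Rpb3 and 0.90 and 0.91 with Rpb4 (difference 1.30, SE 0.111, adjusted p = 0.0252, limma), behind its paralogue QDR2, which went from -0.05 to 1.14. QDR1 lies on chromosome 9, and its input was lower by 0.77 with Rpb4 (adjusted p = 0.00573, limma). Its IP was higher by 0.52, which did not pass (adjusted p = 0.0978, limma), so the larger part of the difference lay in the input. IRC8 read 0.49, 0.55, 1.80 and 1.77 behind TDH1, a glyceraldehyde phosphate dehydrogenase gene at 1.08 and 1.90, and its own body went from -0.20 to 0.15. GID7, a ubiquitin ligase gene, read 0.70, 0.56, 1.41 and 1.53 behind the glucokinase gene GLK1 at 1.44 and 1.82. PPH3, a phosphatase gene, read 0.39, 0.43, 1.07 and 1.07 behind TPS2 of trehalose synthesis at 0.38 and 1.28. The remaining 4 were BDH1 (difference 0.84), URA1 (0.68), GTO3 (0.61) and VEL1 (0.55). URA1, dihydroorotate dehydrogenase, was the case in which the gene itself moved far more, from -0.10 to 1.97, than its promoter, from -0.59 to 0.09.

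**Figure D5:**
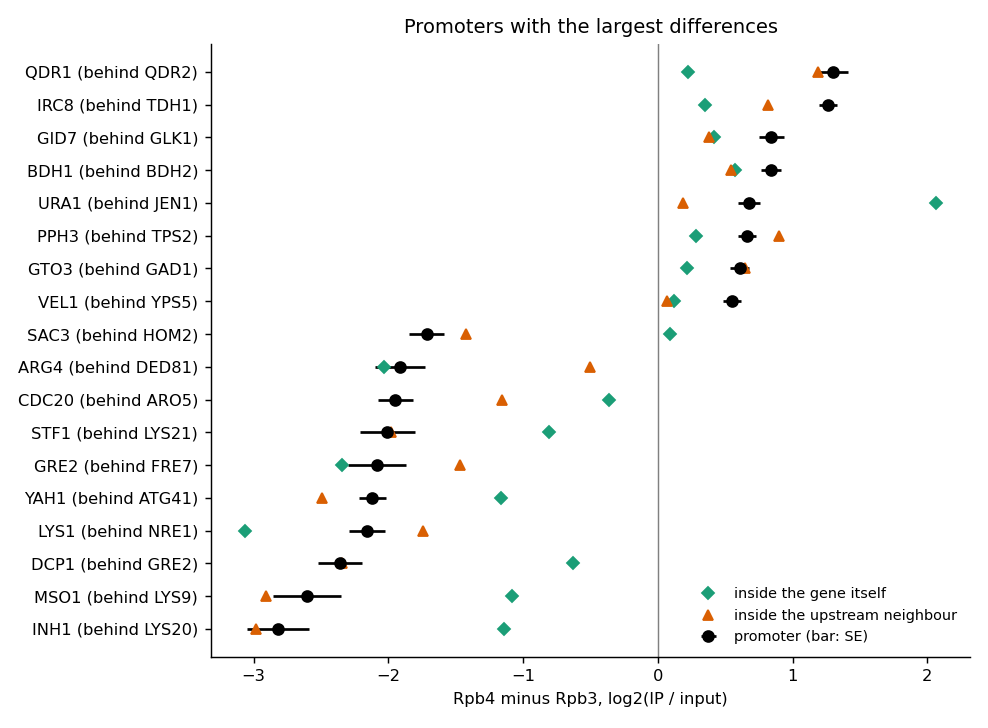
Rpb4 minus Rpb3 in log2(IP / input) (horizontal axis) for the 10 promoters with the largest decreases and the 8 that rose, each named with its upstream neighbour (vertical axis), at the promoter (black, bar: SE), inside the gene itself (green diamond) and inside the neighbour (orange triangle). At INH1, MSO1, DCP1, YAH1, STF1, SAC3, CDC20 and LYS1 the promoter lies nearer to the neighbour than to the gene, and at ARG4 nearer to the gene. Over the 115 lower promoters, however, the neighbour had the larger difference in 57.

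Across the 2313 tandem promoters the difference between groups at the promoter correlated with that of the neighbour at 0.607 and with that of the gene itself at 0.482 (Pearson, a description across promoters on the same 4 arrays), and the 2 bodies correlated at 0.279. Of the 115 lower promoters, 90 had a neighbour, tandem or not, with a lower mean with Rpb4, and 88 of 111 with a body had a lower body. Over all single-gene promoters the neighbour went the same way as the promoter in 1524 of 2582 cases and the gene itself in 1366 of 2496. The neighbour's body passed the test for a difference at 36 of the 115 and at 76 of all 2591. The neighbour differed by more than the gene itself at 57 of the 115 and at 1267 of the 2591. The body medians were -0.37 in the neighbour and -0.33 in the gene itself, against 0.01 and 0.03 over all promoters.

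Grouped by function, most ribosomal protein genes had promoters above the median probe, and most of these genes had a promoter below the gene body. Over all single-gene promoters, for comparison with each list, 55.7% were above and 15.2% below the median probe with Rpb3, 45.4% and 19.0% with Rpb4, and 4.44% were lower with Rpb4. Of those with a gene body, 42.6% lay above it and 16.7% below it with Rpb3, and 28.2% and 20.9% with Rpb4. Of 39 large-subunit promoters 34 were above the median probe with Rpb3 (median 1.40) and 31 with Rpb4 (median 0.91), and 4 were lower with Rpb4. Of the 37 with a body, 22 were below it and 4 above it with Rpb3, and 25 below and 3 above with Rpb4, with medians of -0.57 and -0.67. Small-subunit genes were alike, with all 23 promoters above with Rpb3 (median 1.05) and 19 with Rpb4 (median 0.69), and of the 21 with a body 14 were below it and 3 above with Rpb3, and 17 below and 1 above with Rpb4. Promoters behind large-subunit genes were higher than those in front of them: 38 of 40 were above in each group, with medians of 2.04 and 1.53, and 36 of 40 exceeded their own gene body in each group.

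Glycolysis and fermentation genes had promoters above the median probe in 12 of 16 cases with Rpb3 (median 1.05) and 10 with Rpb4 (median 0.55). They lay below their gene bodies in 13 of 16 cases with Rpb3 and 15 with Rpb4, and promoter minus body had medians of -1.05 and -1.22. The promoters of translation factor genes were above in 18 of 20 with Rpb3 and 17 with Rpb4, where 55.7% and 45.4% of all single-gene promoters were. Proteasome promoters, above in 10 of 15 and 9 of 15, were nearer those shares, with 3 lower with Rpb4, among them RPN4, the transcription factor of the proteasome genes (1.90, 2.09, 1.12 and 0.97, adjusted p = 0.0353, limma).

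Promoters of the hexose transport and galactose list were mostly low. In it 10 of 17 promoters were below the median probe with Rpb3 and 11 with Rpb4 (medians -0.29 and -0.40), and GAL7, a galactose utilisation gene, read -0.75, -0.90, -0.84 and -0.83. In the list of phosphate, iron and nitrogen uptake 11 of 32 were below and 5 above with Rpb3, and 9 below and 6 above with Rpb4, where 15.2% and 19.0% of all single-gene promoters were below. Of 27 promoters of meiosis and sporulation genes 10 and 11 were below and 7 and 6 above. Among those above were SPO19, a sporulation gene behind the ribosomal protein gene RPL5, at 2.25, 2.70, 1.82 and 1.75, and SPO77 behind RPP0, at 1.81, 2.23, 1.38 and 1.36. The IP at SPO77 was itself below the median probe (-0.39 with Rpb3 and -0.49 with Rpb4), and its input was far lower (-2.38 and -1.82). Promoters of this list exceeded their gene bodies in 16 of 27 cases with Rpb3 and 13 with Rpb4, and were under them in 2 and 1. Over all single-gene promoters with a body, 42.6% and 28.2% exceeded it and 16.7% and 20.9% were under it.

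Most of the other lists had more promoters above than below the median probe in both groups, as single-gene promoters did over all. These were stress response (35 promoters, 25 above with Rpb3 and 23 with Rpb4, 2 lower with Rpb4), respiration and the citric acid cycle (32, with 21 and 18 above and 0 lower), ribosome biogenesis (37, with 27 and 18 above and 0 lower), ergosterol synthesis (17, with 12 and 9 above and 2 lower), mating (22, with 13 and 13 above and 0 lower), and cell wall and plasma membrane (20, with 16 and 13 above and 0 lower). Of 13 multidrug resistance promoters 9 and 10 were above, 3 were lower and QDR1 was higher with Rpb4. Of 15 purine and pyrimidine promoters 10 and 10 were above, 2 were lower, among them URA2 (1.63, 1.73, 0.94 and 0.96), and URA1 was higher. Of 14 promoters of RNA polymerase II and general factor genes 10 were above in each group and 0 were lower, of 6 aminoacyl-tRNA synthetase promoters 4 and 4 were above and 0 lower, and the 1 histone promoter, of CSE4, was at 0.20 with Rpb3 (adjusted p = 0.0474, limma) and -0.06 with Rpb4 (adjusted p = 0.418).

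The RPB3 gene, tagged in 1 strain, had a single-gene promoter that read 0.60 and 0.37 with Rpb3 and 0.34 and 0.30 with Rpb4, a difference of -0.17 that did not pass (adjusted p = 0.378, limma). A promoter value does not check which subunit was tagged. Of the genes often used as strain markers, 4 had a single-gene promoter. LYS2 of lysine synthesis read 0.88, 0.93, -0.17 and -0.20 and MET17 of methionine synthesis 0.55, 0.53, -0.25 and -0.31, and both were lower with Rpb4 (adjusted p = 0.0211 and 0.0252). LEU2, at 0.53, 1.21, 0.45 and 0.41, and ADE2, at 0.13, 0.34, 0.08 and -0.12, did not pass.

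The extracts of the 2 strains were not identical at every promoter. At 29 promoters at least 1 probe, 47 probes in all, had an input signal that differed between the groups by more than 1 on the log2 scale. At PAU19, a subtelomeric cell wall protein gene, the input was higher by 3.29 with Rpb4. At GAL3, where all 3 probes differed so, the input went from 0.03 with Rpb3 to -5.15 with Rpb4. The IP at GAL3 went from -0.12 to -4.55, and its Rpb4 ratios of 0.29 and 1.01 rest on these low signals. Of the 115 lower promoters 4 held a probe with such an input difference, and of the 8 higher ones 0. The 87 promoters on chromosome 9 had a median input difference of -0.41 and a median IP difference of -0.65, against 0.09 and -0.08 for the 2504 on other chromosomes, while the ratio differed by -0.21 and -0.15. Leaving out chromosome 9 and those probes gave 118 lower and 8 higher promoters.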

How the data were processed

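The 4 two-colour arrays were grouped by the tagged subunit in the labels. Per the submitters' processing notes, Agilent Feature Extraction 9.1 was used. Columns of the deposited files hold foreground, background and normalized intensity for IP and WCE (input) and a log2 ratio, per the file headers. The authors' normalized intensity, as checked in each file, was foreground minus background minus a constant, with the WCE channel scaled by 1 factor per array (0.445 to 0.927), and the deposited log2 ratio was the log2 of their ratio. Their software and the build are not given in the sources used. The IP had the same dye on all arrays, all on 1 slide, so dye and slide effects could not be fitted.

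The log2 ratio was recomputed and centred by the median data probe of its array, with 3444 control spots left out and no loess or quantile step. The distance was read from the entry that names the probe's own gene, since the last entry of the annotation held it in only 11.2% of probes. Probes were averaged per region and fitted with limma 3.58.1 (R 4.3.3; lmFit, eBayes) over all 4 arrays, tests two-sided, adjusted by Benjamini-Hochberg over all 10743 regions or all 5131 genes at 0.05. The method was tested on simulated data. Promoters named were those with the 10 largest changes per comparison and direction among named genes past the threshold with all arrays agreeing in sign, filled to 5 by smallest p where fewer passed, the extremes of each of 20 gene lists, and the tagged and marker genes. Some are given only as counts. The members and lists were chosen with earlier results of these data known. The neighbour is the nearest gene with probes on the far side. RefSeq R64 served for names and gene order only, and promoter sequences and motifs were not analysed here. Python 3.11.15, numpy 2.4.6, pandas 2.3.3 and matplotlib 3.10.9 made tables and figures.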

Additional observations from a re-analysis of the deposited data

Results flagged for a closer look

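At 4 of the promoters chosen for naming, the level relative to the gene body was of one sign on both Rpb3 arrays and of the other on both Rpb4 arrays. Promoter minus body at LYS9 was -0.40 and -0.75 with Rpb3 and 1.46 and 1.46 with Rpb4, a difference of 2.04. At LYS12 of lysine synthesis, on chromosome 9, it was -1.16 and -1.34 against 0.10 and 0.06, a difference of 1.33. At MET17 it was -0.91 and -1.13 against 0.16 and 0.20, a difference of 1.19. At PIC2, a mitochondrial carrier gene, it was 0.30 and 0.28 against -0.97 and -1.07, a difference of -1.30. None of the 4 passed the test of the difference itself (limma adjusted p = 0.0551, 0.0551, 0.0642 and 0.0551). All 4 passed after scaling to 1 spread, after quantile normalization and with normexp. None of the 4 passed without dim probes, with the nearest promoter probe only, or with the nearest probe inside the gene only. With that inside probe the differences were 2.09 at LYS9, 1.31 at LYS12, 0.87 at MET17 and -1.07 at PIC2. With the nearest promoter probe alone the differences at LYS9, MET17 and PIC2 were 0.52, 0.23 and -0.46. Groups of 2 arrays are too small for a test of single outlying arrays.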

How the results depend on the processing

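Counts of promoters are given as above (or higher) then below (or lower). The mean over promoters kept its sign in each group and in the difference under every alternative run. It was 0.483, 0.388, 0.476, 0.436, 0.489, 0.436 and 0.415 for Rpb3 with centring on probes inside genes, without dim probes, with the nearest promoter probe only, without centring, with normexp, at 1 median absolute deviation and after quantile normalization. For Rpb4 it was 0.221 without dim probes, 0.231 without centring, 0.327 with normexp, 0.294 at 1 median absolute deviation and 0.301 after quantile normalization. The difference was -0.228 with inside centring, -0.166 without dim probes, -0.215 with the nearest probe, -0.162 with normexp, -0.142 at 1 median absolute deviation and -0.114 after quantile normalization. Leaving out 1 array gave 0.453 to 0.468, 0.258 to 0.281 and -0.202 to -0.18.

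The differing promoters numbered 13 and 185 with normexp, 53 lower at 1 median absolute deviation and 26 higher after quantile normalization, and those next to amino acid synthesis genes 10 (own gene) and 9 (neighbour) at 1 median absolute deviation. As a percentage of the 2496 promoters with a gene body, those below the body were 9.86% for Rpb3 with the nearest inside probe and 10.7% with the nearest promoter probe, and 8.13% for Rpb4 with the nearest inside probe. The difference in promoter minus body gave 2 and 1 without chromosome 9 and input-different probes, 0 and 1 without dim probes, 14 and 30 with normexp, 12 and 27 at 1 median absolute deviation, and 24 and 96 after quantile normalization. The first minus the sixth distance bin was 0.28 with Rpb3 and 0.176 with Rpb4, and 0.21 and 0.109 with bins of 200 bp, which are wider by construction. PSA1's promoter minus body with Rpb3 turned to 0.04 with its nearest probe only. The other causes were not tested.

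Leaving out 1 array gave 1269 to 1710 and 275 to 629 for Rpb3, 593 to 1519 and 131 to 744 for Rpb4, 0 to 496 and 0 to 1274 for the difference, 33.2% to 55.2% and 11.5% to 29.5% of the 2496 for promoter minus body with Rpb3, 8.77% to 46.8% and 5.41% to 36.5% with Rpb4, and 0 to 478 and 0 to 1263 promoters for its difference. Lower promoters of amino acid synthesis genes ranged from 0 to 40, and those behind them from 0 to 37. The lone array of a group was then assumed to vary like the other pair. Of the values of single named promoters, 837 of 883 under other settings and 442 of 496 with an array left out kept their sign and their side of the threshold. No paired analysis was possible because the labels number no replicates, and the numbers 1 and 2 used here only name the arrays of a group. The search for sequence motifs was not run.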
